A study of Mus musculus with 22 samples.

Results

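The sterol and fatty acid synthesis genes described here are 30 mouse genes: 18 enzymes that make cholesterol, 8 enzymes that make and modify fatty acids, and 4 regulators or carriers of sterols. They were chosen by name, as the probes whose gene name on the array is one of the 30, older names included. All 30 were measured, by 63 probes, among 28093 genes measured by 41174 probes. Gene expression was measured on 22 one-colour Agilent arrays of mouse cells, with 1 array per group and so no repeated culture of any group.

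Primordial germ cells (PGCs), the embryonic precursors of eggs and sperm, came from embryos at E11.5. Under the growth conditions in the labels, cells were kept in Knockout DMEM with serum replacement and LIF, and cultures that convert PGCs into embryonic germ cells (EGCs), pluripotent lines derived from PGCs, also held bFGF. A time course of PGC cultures was sampled at day 1 with bFGF, at days 2, 3 and 6 with bFGF, 2i and A83-01, and at day 10, for which the label names no additive. 2i is the MEK inhibitor PD325901 (1 µM) with the GSK inhibitor CHIR99021 (3 µM), and A83-01 (250 nM) inhibits receptors of the activin and TGF-beta family. Other day 2 cultures held bFGF and 1 of PD325901, CHIR99021, A83-01 and 4-hydroxytamoxifen (4OHT, 100 nM), or 2i, A83-01 and 4OHT together, or bFGF alone. The labels tie 4OHT to AKT activation and do not name the transgene it acts on. Uncultured PGCs, an EGC line and a line of embryonic stem cells (ESCs, from the blastocyst) completed this series, and all of these cells were sorted on SSEA-1, a surface sugar of PGCs and pluripotent cells. EBRTcH3 ESCs were taken as the parental line or, sorted on GFP, with forced expression of Prdm14, Vasa, Nanos2, Nanos3, Dnd, Blimp-1 or GFP alone. The Blimp-1 and GFP constructs were driven by the EF1a promoter and sampled at day 2.

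Cholesterol synthesis starts from acetyl-CoA and runs through mevalonate and isoprenoid units to squalene, which is closed into lanosterol and trimmed stepwise to cholesterol. Fatty acid synthesis draws on the same acetyl-CoA, which is carboxylated, polymerised by fatty acid synthase, lengthened and desaturated. Transcription factors named SREBPs, encoded by Srebf1 and Srebf2, switch on both sets of genes when membranes are short of sterol, and Insig1 holds their precursors in the endoplasmic reticulum when sterol is plentiful.

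Promoter windows of 250 bases before to 50 bases after the start of transcription were taken from RefSeq on GRCm38.p6. They covered 24 of the 30 genes in 30 windows, and Fdps, Fdft1, Sqle, Stard4, Scd1 and Scd2 had none. The letters TCACNCCAC, an SREBP-like site, were searched first on both strands and occurred in 1.24% of all 32851 windows and in the window of 1 member, Hmgcs1. The shorter form TCACNCCA was searched after that result and occurred in 4.36% of all windows and in those of 3 members, Hmgcs1, Msmo1 and Srebf2. The CCAAT box (CCAAT), which can share its first letters with the end of the SREBP-like letters, occurred in 37.41% of all windows and in 22 of the 30 member windows, covering 21 of the 24 genes. The GC box (GGGCGG) occurred in 35.66% of all windows and in 22 of the 30 member windows, and the E-box (CACGTG) in 7.15% of all windows and in those of Hsd17b7, Sc5d, Dhcr7 and Insig1. The 3 windows with the SREBP-like letters are shown with those of Hsd17b7 and Fasn, a sterol and a fatty acid enzyme that the results below turn on. Capitals mark TCACNCCA and CCAAT on either strand, and in the Fasn window CCAATTGG holds the CCAAT box on both strands. Counted from the start of transcription, the SREBP-like letters begin at position -137 in Hmgcs1, -177 in Msmo1 and -162 in Srebf2.
Hmgcs1, chr13:119690101-119690400, plus strand: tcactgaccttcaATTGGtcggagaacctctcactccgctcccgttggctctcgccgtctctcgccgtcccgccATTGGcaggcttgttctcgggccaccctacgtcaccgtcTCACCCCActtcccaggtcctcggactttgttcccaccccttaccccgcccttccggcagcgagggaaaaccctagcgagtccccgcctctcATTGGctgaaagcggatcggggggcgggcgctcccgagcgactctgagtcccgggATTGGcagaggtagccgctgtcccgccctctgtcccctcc
Msmo1, chr8:64733529-64733828, minus strand: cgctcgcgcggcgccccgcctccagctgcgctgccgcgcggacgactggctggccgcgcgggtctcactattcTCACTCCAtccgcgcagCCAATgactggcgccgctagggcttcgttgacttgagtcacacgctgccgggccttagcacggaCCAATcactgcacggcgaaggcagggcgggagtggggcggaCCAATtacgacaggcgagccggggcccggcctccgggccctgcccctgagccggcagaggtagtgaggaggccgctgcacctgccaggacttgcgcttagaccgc
Srebf2, chr15:82147019-82147318, plus strand: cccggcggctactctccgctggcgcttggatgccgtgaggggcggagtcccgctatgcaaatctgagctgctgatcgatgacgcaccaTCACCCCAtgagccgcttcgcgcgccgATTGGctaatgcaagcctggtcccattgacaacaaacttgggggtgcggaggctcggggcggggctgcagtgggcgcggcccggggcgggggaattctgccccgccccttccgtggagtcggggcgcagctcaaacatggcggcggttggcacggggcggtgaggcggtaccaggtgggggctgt
Hsd17b7, chr1:169969156-169969455, minus strand: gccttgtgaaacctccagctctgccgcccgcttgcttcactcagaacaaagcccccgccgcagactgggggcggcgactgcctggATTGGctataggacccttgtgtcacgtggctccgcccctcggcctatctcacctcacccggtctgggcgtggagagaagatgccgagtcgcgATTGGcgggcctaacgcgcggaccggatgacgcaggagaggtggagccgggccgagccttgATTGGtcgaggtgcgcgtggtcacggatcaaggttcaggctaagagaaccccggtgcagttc
Fasn, chr11:120824498-120824797, minus strand: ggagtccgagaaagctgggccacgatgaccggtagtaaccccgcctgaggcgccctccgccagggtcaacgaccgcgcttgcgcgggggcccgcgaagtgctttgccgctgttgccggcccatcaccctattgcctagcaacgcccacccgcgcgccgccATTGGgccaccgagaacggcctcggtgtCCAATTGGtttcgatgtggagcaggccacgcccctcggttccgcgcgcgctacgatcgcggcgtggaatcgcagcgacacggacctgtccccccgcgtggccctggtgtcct

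The level of a gene is given throughout as log2 of its intensity over the 75th percentile of intensity on the same array, so that 0 is the level of the 75th percentile probe and 1 unit is a 2-fold difference. The 75th percentiles ran from an intensity of 120.3 on the array of 2i, A83-01 and 4OHT to 750.3 on the ESC array, and were under 250 on 6 arrays, those of 2i, A83-01 and 4OHT, parental EBRTcH3 (195.1), the array labelled Blimp-1 (195.4), uncultured PGCs (203.5), Nanos2 (224) and 4OHT (241.8). Between 44.3 and 64.7% of probes were well above background. Members were well above background on all 22 arrays, except Acaca, not so on uncultured PGCs and with 2i, A83-01 and 4OHT, and Scd1, not so with 2i, A83-01 and 4OHT. Of 5 forced genes that had a probe, Nanos3 was highest on its own array (2.67, against -3.20 to -0.33 on the other EBRTcH3 arrays). Ddx4, which encodes Vasa, was lowest on the array labelled Vasa (0.02, against 0.27 to 1.5), Prdm1, which encodes Blimp-1, was at -1.38 on the array labelled Blimp-1 and -0.18 on the GFP array, and whether these probes lie in the sequences that were introduced was not tested. Dnd1 was second highest on the Dnd array, whose title reads Dnd while another of its labels reads End, and Nanos2 was not above background on the Nanos2 array.

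**Figure D1:**
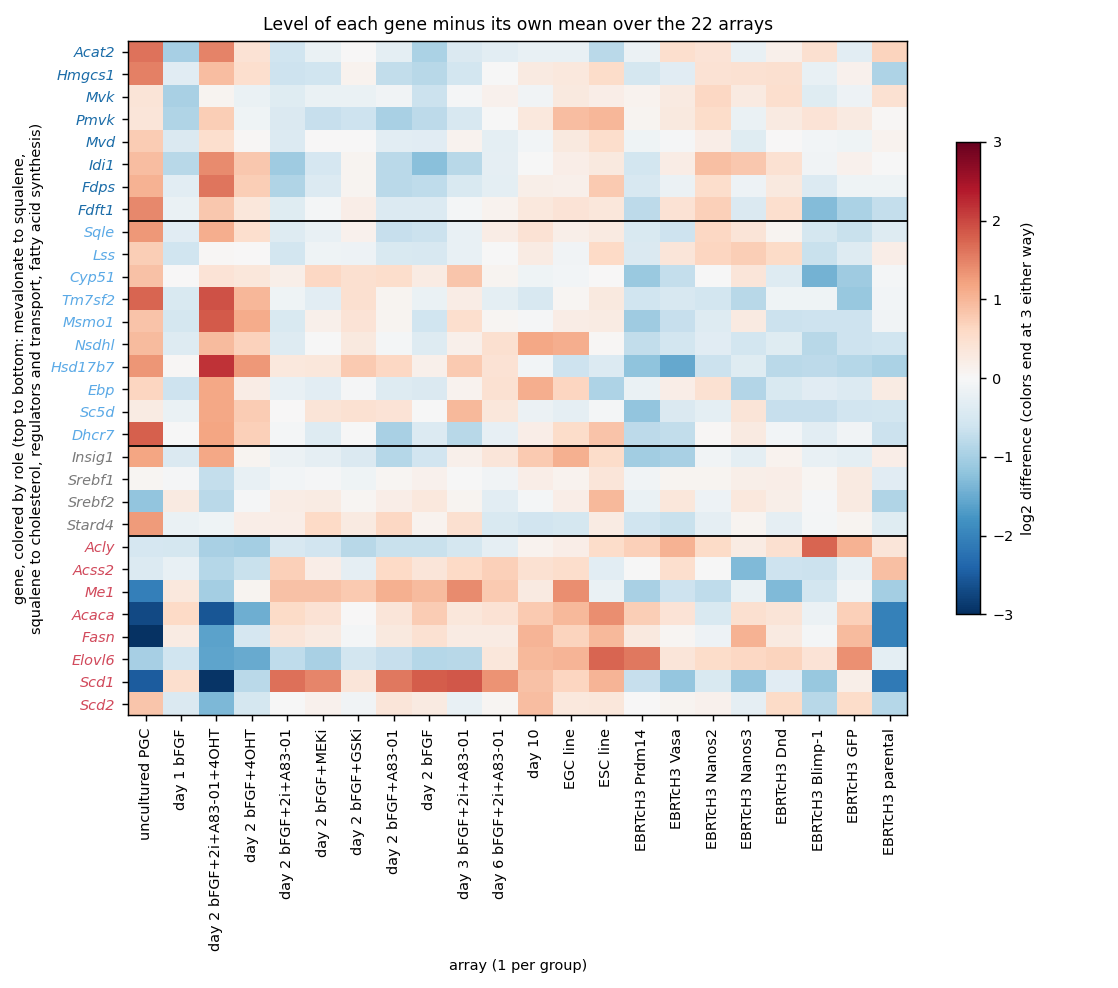
Level of each of the 30 genes on each of the 22 arrays (columns, 1 array per group) minus the gene's own mean over the arrays, in log2 units, with gene names coloured by role. Hmgcs1 is at a level of 5.43 on the uncultured PGC array and between 2.98 and 4.84 on the other arrays, and Fasn is at 2.42 on the PGC array and between 3.36 and 6.42 on the others.

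Within 1 day of culture with bFGF, all 18 cholesterol synthesis enzymes were lower than in uncultured PGCs and 6 of the 8 fatty acid enzymes were higher. These arrays have no replicate and the differences no test. Of the 18 sterol enzymes, 16 were at least 2-fold lower and none 2-fold higher, and their median log2 difference was -1.36. The background was broad: 31.3% of genes were at least 2-fold lower and 16.3% at least 2-fold higher, with a median log2 difference of -0.35. The share of all genes lower or higher by any amount is not given here, so the counts of 18 and 6 have no such background. Among genes whose mean level was at least that of the lowest member, Acss2, the shares were 28.1% and 17.8%.

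Acat2, which joins acetyl-CoA units ahead of the pathway, had a level of -1.22 at day 1 and 1.40 in uncultured PGCs, a 6.16-fold lower intensity. Hmgcs1, which makes HMG-CoA, was at 3.58 at day 1 and 5.43 in PGCs, 3.61-fold lower. Idi1, which interconverts the isoprenoid units, was at 2.29 at day 1 and 4.05 in PGCs, 3.38-fold lower. All 8 enzymes from Acat2 to squalene were at least 2-fold lower. Further down the pathway, Tm7sf2, a sterol C14 reductase, was at 1.87 at day 1 and 4.08 in PGCs, 4.62-fold lower. Dhcr7, which makes cholesterol from its last precursor in one branch, was at 3.19 at day 1 and 4.99 in PGCs, 3.49-fold lower. Only Cyp51, lanosterol demethylase, and Sc5d, sterol C5 desaturase, were less than 2-fold lower, with log2 differences of -0.87 and -0.44. The 3′-most probe of Lss, which does not stand for the gene, went the other way (0.62).

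The regulators did not move as one. Insig1 had a log2 difference of -1.60 and Stard4, a cholesterol carrier protein, of -1.48. Srebf1 was at 3.17 at day 1 and 3.27 in PGCs. Srebf2 was at 4.43 at day 1 and 2.99 in PGCs, 2.71-fold higher at its 3′-most probe. Its 3 other probes, in 5′ to 3′ order, had log2 differences of -0.03, -1.27 and 0.66, so the direction for Srebf2 depends on the probe.

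Fatty acid enzymes went the other way. Fasn, fatty acid synthase, was at 5.64 at day 1 and 2.42 in PGCs, 9.35-fold higher, and its second probe had a log2 difference of 2.19 against 3.23 for the first. Me1, malic enzyme, which supplies NADPH, was at 0.23 at day 1 and -2.13 in PGCs, 5.15-fold higher. Scd1, a desaturase that makes monounsaturated fatty acids, was at 0.18 at day 1 and -2.82 in PGCs, 7.97-fold higher. Its relative Scd2 was at 4.00 at day 1 and 5.28 in PGCs, 2.42-fold lower. Acly, Acss2 and Elovl6 differed less than 2-fold. The median of the 8 was 1.38, and 0.52 when all probes of a gene were averaged.

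Acaca, acetyl-CoA carboxylase, which makes the building block for fatty acid synthase, was at least 9.85-fold higher at day 1, a bound because the PGC array was not above background. That value came from the last of its 5 probes, on mm9 at chr11:84214359-84214418. The probes before it, in 5′ to 3′ order, had log2 differences of -0.46, -1.48, 0.51 and 1.29. The second and the last are shown because they differed in opposite directions, and no base is marked.
Acaca probe 2: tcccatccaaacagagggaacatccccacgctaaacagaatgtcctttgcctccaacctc
Acaca probe 5: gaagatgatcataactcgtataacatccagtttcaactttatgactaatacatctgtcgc

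**Figure D2:**
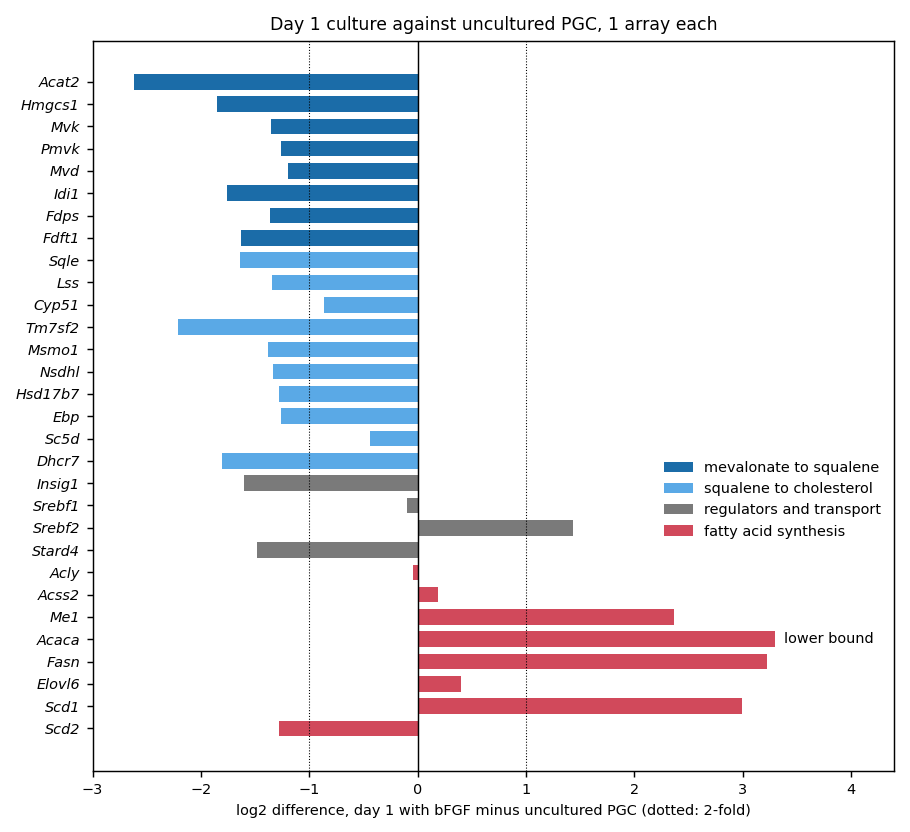
Log2 difference of each gene between the day 1 culture with bFGF and uncultured PGCs (x axis, 1 array each, dotted lines at 2-fold), ordered by role on the y axis. All 18 sterol enzymes lie left of 0, Acat2 lowest at -2.62, while Fasn (3.23), Scd1 and Me1 lie beyond 2-fold on the right and the value of Acaca is a lower bound.

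Other features of the PGC array went with these differences. The summed scaled intensity of 5 erythroid markers was 0.249 at day 1 and 44.6 on the PGC array, where 4 of 5 were above background and the embryonic globin Hbb-y was at 4.79 (-6.38 at day 1). That of 8 gonadal and steroidogenic markers was 12.2 at day 1 and 89.2 on the PGC array. Nearly all of both sums came from Cyp17a1, at 3.55 at day 1 and 6.44 in PGCs, and this gene was at 7.05 on the parental EBRTcH3 array. The sum of 8 fibroblast markers was 92.8 at day 1 and 7.28 on the PGC array. Of these, Lum (-3.96 at day 1 and -0.93 in PGCs) and Thy1 (-4.63 and -2.30) went the other way. That of 5 immediate early and stress genes was 33.2 at day 1 and 59 on the PGC array. The 75th percentile was 631.1 at day 1 and 203.5 on the PGC array, which lay on a slide of its own, so slide and uncultured state cannot be told apart. The part of these features in the sterol and fatty acid differences was not tested. In such bulk samples, fewer cells of a type and less RNA per cell cannot be told apart.

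Scaling changed the size and not the sign of the sterol differences. Under normexp background correction 18 of 18 were lower and 10 at least 2-fold lower (median -1.06), and under quantile normalization 18 of 18 were lower and 11 at least 2-fold lower (median -1.15). The median over all genes was then -0.06 and -0.09. The shares of all genes lower under these scalings, by any amount or at least 2-fold, are not given here.

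Across all 9 early cultures (days 1 to 3, every additive) against the 1 array of uncultured PGCs, none of the 30 genes passed an adjusted p of 0.05 in limma, against 3.85% of 21300 genes (1.77% higher, 2.08% lower). At an unadjusted p under 0.05 there were 13 of the 30, among 3930 genes in all. Fasn had a lowest, median and highest level of 3.79, 5.64 and 5.84 in early cultures and 2.42 in PGCs, a log2 difference of 2.94 ± 0.91 (SE; limma adjusted p = 0.0915). Me1 ranged from -1.11 to 1.33 with a median of 0.78 in early cultures and was at -2.13 in PGCs, a log2 difference of 2.64 ± 0.82 (limma adjusted p = 0.0936). Hmgcs1 ranged from 3.07 to 4.84 with a median of 3.37 in early cultures and was at 5.43 in PGCs, a log2 difference of -1.75 ± 0.65 (limma adjusted p = 0.165). For these 3 genes the PGC level lay outside the range of the early cultures, and for how many of all genes this holds was not counted. Of the sterol enzymes 17 of 18 had lower fitted values in early cultures, Sc5d being higher by 0.19 on the log2 scale (limma adjusted p = 0.848), and 6 of 8 fatty acid enzymes had higher ones. The share of all genes with lower or higher fitted values is not given here.

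One array decided whether these genes passed. Without the dimmest array, that of 2i, A83-01 and 4OHT, 9 members passed in limma, with 10.6% of all genes. Fasn (3.14, limma adjusted p = 0.0286) and Me1 (2.84, adjusted p = 0.0216) were higher, and Hmgcs1 (-1.90, adjusted p = 0.048), Sqle, Fdft1, Dhcr7, Tm7sf2, Acat2 and Insig1 lower. On that array 338 was the summed scaled intensity of the 18 sterol enzymes, above 284 in PGCs and 97.5 at day 1.

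From day 1 on, the members moved little between neighbouring times. At day 2 with bFGF, Scd1 was 2.5-fold higher than at day 1, and no other member differed 2-fold (all genes: 3.86% higher, 5.27% lower). At day 3, none differed 2-fold from day 2 with the same additives (3.54% higher, 5.87% lower). At day 6, Elovl6, which lengthens fatty acids beyond palmitate, was 2.25-fold higher than at day 3 on the same slide (12% higher, 7.59% lower). At day 10 no member differed 2-fold from day 6 (7.53% higher, 9.45% lower), and in the EGC line Me1 was 2.17-fold higher than at day 10 (5.49% higher, 6.45% lower). The second probe of Me1 was at 0.13 in the EGC line and 0.12 at day 10, so this difference rests on 1 of its 2 probes. Over uncultured PGCs and days 1, 2, 3, 6 and 10, with day 0 for PGCs, the levels of Hmgcs1 were 5.43, 3.58, 3.29, 3.37, 3.91 and 4.19. It was lowest at day 2 and stayed below the PGC level. Those of Fasn were 2.42, 5.64, 5.76, 5.63, 5.63 and 6.42, high from day 1 on. Those of Elovl6 were 0.82, 1.22, 1.06, 0.97, 2.15 and 2.80, high only on the late arrays. The slope on log2(day + 1) over these 6 arrays passed the limma threshold for 0 of 30 members and 0% of 19037 genes, with 4 members and 2411 genes at an unadjusted p under 0.05.

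In late cultures (days 6 and 10) against early cultures, 0 of 30 members passed (limma, 2.54% of genes, 1.69% higher and 0.859% lower), with 3 at an unadjusted p under 0.05. The number of all genes under that p is not given here. Elovl6 was at 2.15 and 2.80 in late cultures, with a lowest, median and highest level of 0.23, 0.97 and 1.27 in early ones. The groups did not overlap, and the log2 difference was 1.59 (limma adjusted p = 0.0757). How many of all genes had no overlap between late and early cultures was not counted. With slide as a random block Elovl6 (1.52, limma adjusted p = 0.00221), Acly, Ebp and Nsdhl passed as higher and Stard4 as lower, with 23% of all genes. Lines against late cultures gave 0 of 30 (limma, 0.0704% of genes) and 0 at an unadjusted p under 0.05, again without a count of all genes under that p.

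The lines (EGC, ESC and parental EBRTcH3) differed from early cultures in 4 of 30 members, Elovl6, Acly and Pmvk higher and Hsd17b7 lower, against a background of 20.2% of genes, 10.2% higher and 10% lower (limma, adjusted p under 0.05). The share among members was therefore below that of all genes tested. Elovl6 was at 2.84, 3.57 and 1.52 in the EGC, ESC and parental lines, and from 0.23 to 1.27 in early cultures. The lowest line lay above the highest early culture, and the log2 difference was 1.76 ± 0.38 (SE; limma adjusted p = 0.00545). Acly, ATP citrate lyase, which turns citrate into the acetyl-CoA both pathways use, was at 1.41, 1.76 and 1.58 in those lines, with a lowest, median and highest level of 0.20, 0.56 and 0.74 in early cultures. Here too the groups did not overlap, and the log2 difference was 1.06 ± 0.21 (SE; limma adjusted p = 0.00333). How many of all genes had no overlap between lines and early cultures was not counted.

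Pmvk, phosphomevalonate kinase, was at 3.71, 3.78 and 2.82 in the EGC, ESC and parental lines, with a lowest, median and highest level of 1.82, 2.17 and 3.53 in early cultures. The parental line lay within the early range, and the log2 difference was 1.12 ± 0.35 (SE; limma adjusted p = 0.0368). Hsd17b7, which reduces a keto group in sterol demethylation, was at 1.13, 1.34 and 0.81 in the lines, with a lowest, median and highest level of 1.80, 2.36 and 3.93 in early cultures. All lines lay below all early cultures, and the log2 difference was -1.38 ± 0.39 (SE; limma adjusted p = 0.024). With slide as a random block, Elovl6 and Acly passed, with 9% of all genes, while Pmvk (limma adjusted p = 0.148) and Hsd17b7 (0.0522) did not. Hsd17b7 also missed the threshold without the EGC line or without the parental line, and Pmvk without the EGC line, the ESC line or any of 7 early cultures taken singly. Without arrays of a 75th percentile under 250, 12 members passed (limma), with 34.5% of all genes, among them Hmgcs1 (0.94, adjusted p = 0.0141) and Dhcr7 (1.10, adjusted p = 0.0161), both higher in lines.

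**Figure D3:**
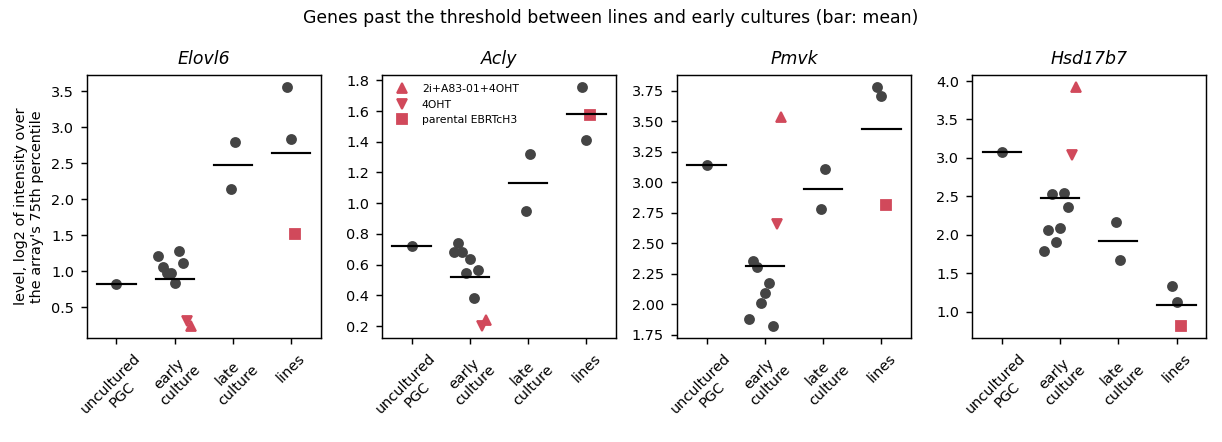
Level of Elovl6, Acly, Pmvk and Hsd17b7 (y axes, log2 of intensity over the array's 75th percentile) on uncultured PGC, early culture, late culture and line arrays, 1 point per array, bars at the mean. For Elovl6 and Acly every line lies above every early culture, for Hsd17b7 every line lies below, and the parental line at 2.82 lies within the early range for Pmvk.

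Fibroblast markers summed to 1.84 to 11.7 on the line arrays and 3.64 to 316 on the early culture arrays. Of that list Thy1 went the other way, at 0.25, 1.29 and -0.52 on the ESC, EGC and parental arrays and -5.01 to -3.17 on the early ones. Pdgfra overlapped, so the sum does not speak for the whole list. Pluripotent markers summed to 87.6 to 299 on the lines and 12.5 to 86.3 on the early cultures. The part of these markers in the 4 differences was not tested. Against uncultured PGCs, 0 of 30 members passed in lines (limma, 5.16% of genes, 2% higher and 3.16% lower), with 10 at an unadjusted p under 0.05. The number of all genes under that p is not given here. Stard4 came closest, with a log2 difference of -1.5 ± 0.43 (SE; limma adjusted p = 0.0658). The parental array, one of the dim ones, had Fasn at 3.36 and Acaca at -2.99, while the EGC and ESC lines had Fasn at 6.07 and 6.37 and Acaca at 0.03 and 0.43. With the GFP array in place of the parental one 5 members passed (limma), Fasn (3.84, adjusted p = 0.00293), Elovl6, Srebf2 and Acaca higher and Stard4 lower, with 12.5% of all genes, and the value of Acaca rests on a PGC level not above background. Without the parental array 3 passed, Fasn, Elovl6 and Srebf2, with 9.55% of all genes. Without the ESC array Stard4 passed as lower (-1.72, limma adjusted p = 0.0443), with 4.07% of all genes.

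Between the pluripotent lines derived from germ cells and from blastocysts, Ebp, a sterol isomerase, was at 5.21 in EGCs and 3.64 in ESCs, 2.96-fold higher. Nsdhl, a sterol dehydrogenase, was at 2.13 in EGCs and 1.07 in ESCs, 2.09-fold higher, and Me1 at 1.31 in EGCs and -0.28 in ESCs, 3-fold higher. The second probe of Me1 was at 0.13 in EGCs and -0.06 in ESCs, under 2-fold apart. No member was 2-fold lower in EGCs, and 11.8% of genes were at least 2-fold higher and 7.1% at least 2-fold lower. Each line was 1 array on its own slide, with no test.

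At day 2, 4OHT went with higher sterol enzymes and lower fatty acid enzymes. Against bFGF alone, 18 of 18 sterol enzymes were higher with 4OHT and 10 at least 2-fold higher (all genes at least 2-fold apart: 26.1% higher, 11.3% lower). Their median log2 difference was 1.10, against 0.31 over all genes. For no day 2 comparison is the share of all genes higher or lower by any amount given here. Counts of enzymes that were higher or lower by any amount thus have no such background. The 3′-most probes of Lss and Sc5d, which do not stand for these genes, went the other way (-1.71 and -1.01), so the sign depends on the probe there. Idi1 was at 3.92 with 4OHT and 1.87 without, 4.15-fold higher. Msmo1, a sterol methyl oxidase, was at 5.75 with 4OHT and 4.04 without, 3.26-fold higher. Fdps, which makes farnesyl diphosphate, was at 4.17 with 4OHT and 2.66 without, 2.84-fold higher.

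All 8 fatty acid enzymes were lower with 4OHT, with a median log2 difference of -0.91. Scd1 was at -1.13 with 4OHT and 1.5 without, 6.2-fold lower. Acaca was at -2.43 with 4OHT and -0.19 without, 4.71-fold lower. Its other probes, in 5′ to 3′ order, had log2 differences of -0.75, 1.34, 0.27 and -0.02, so the sign again depends on the probe. Acss2, which makes acetyl-CoA from acetate, was 2.06-fold lower. Srebf2 was at 4.14 with 4OHT and 4.49 without, and Insig1 at -0.81 with 4OHT and -1.47 without, both under 2-fold.

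Adding 2i and A83-01 to 4OHT on the same slide gave values further the same way. All 18 sterol enzymes were higher than with 4OHT alone, with a median log2 difference of 0.53, and Acat2 and the regulator Insig1 were 2.09-fold and 2.1-fold higher (all genes: 8.31% higher, 4.89% lower). The 3′-most probes of Lss, Sc5d and Cyp51, which do not stand for these genes, were lower (-1.37, -0.55 and -0.29). Me1 and Fasn were each 2.13-fold lower and Scd1 at least 2.75-fold lower. Under normexp 16 of the 18 sterol enzymes were higher, with a median of 0.19, and the median over all genes was -0.0025, against 0.13 with the 75th percentile scaling. The same additives without 4OHT, again within a slide, gave 14 of 18 higher with a median of 0.14. No member was 2-fold apart (all genes: 2.01% at least 2-fold higher, 1.91% at least 2-fold lower).

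The single inhibitors were each set against bFGF alone. With the GSK inhibitor 18 of 18 sterol enzymes were higher, with a median of 0.62. Idi1 was 2.51-fold higher and Scd1 2.75-fold lower (all genes at least 2-fold apart: 11.6% higher, 6.88% lower). The other probe of Idi1 was at -0.48 with the GSK inhibitor and -1.28 with bFGF alone, under 2-fold apart. With the MEK inhibitor 17 of 18 were higher, with a median of 0.37 and none 2-fold apart (6.2% higher, 3.52% lower). With A83-01 14 of 18 were higher, with a median of 0.20 and none 2-fold apart (6.95% higher, 5.98% lower). The bracketed shares are of genes at least 2-fold apart. The share of all genes higher by any amount is not given here, so the counts of higher enzymes have no such background. The 3′-most probes of Lss and Sc5d were lower with each inhibitor than with bFGF alone. These comparisons share the array of bFGF alone, and in all 3 the added compound lay on another slide.

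**Figure D4:**
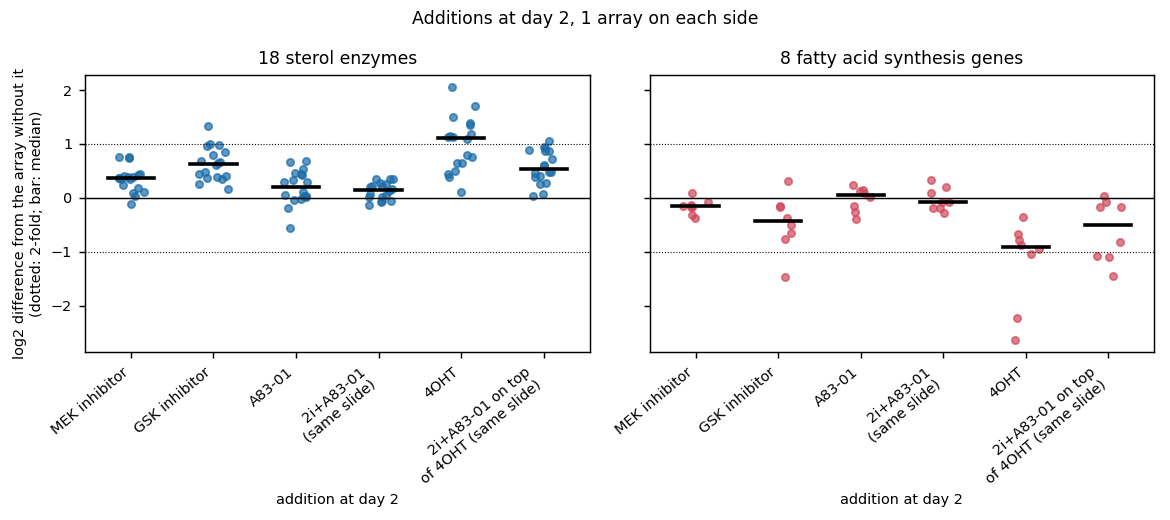
Log2 difference of each gene for each addition at day 2 against the array without it (1 array on each side, dotted lines at 2-fold, bars at the median), in panels by role. With 4OHT the sterol enzymes have a median of 1.10 and the fatty acid enzymes of -0.91, and with 2i and A83-01 alone the sterol median is 0.14.

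In an additive limma fit over the 7 day 2 arrays, 0 of 30 members passed for each of 4OHT, the MEK inhibitor, the GSK inhibitor, A83-01 and the sum of 2i and A83-01 (0% of genes for each). For 4OHT, 20 members and 8891 of 19088 genes were under 0.05 before adjustment. No adjusted p was below 0.0525, the value shared by Dhcr7 (1.27 ± 0.26, SE), Acaca (-2.40 ± 0.37) and Scd1 (-3.14 ± 0.57) among others. No member reached an unadjusted p under 0.05 for the other terms, for which the number of all genes under that p is not given here. With a term for the slide of the single inhibitors, 16 members passed for 4OHT in limma, 10 sterol enzymes higher and 6 fatty acid enzymes lower, against 50.9% of all genes. Leaving out the MEK inhibitor, GSK inhibitor or A83-01 array, one at a time, gives the same estimates as that term and is no separate support, with 16 members and 49.7, 50.2 or 50.4% of all genes. Without the bFGF array 4 members passed, with 16.9% of all genes.

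Both 4OHT arrays lay on a slide of their own, so slide and 4OHT cannot be told apart. Their 75th percentiles were 241.8 with 4OHT and 120.3 with 2i, A83-01 and 4OHT, against 674.3 with bFGF alone. Fibroblast markers summed to 8.87 with 4OHT and 3.64 with all additives, against 286 with bFGF alone. Of that list Thy1 and Lum went the other way with 4OHT, at -3.17 and -3.06 against -4.11 and -3.62 with bFGF alone. Gonadal and steroidogenic markers summed to 76.5 and 180, both above the array of bFGF alone. Nearly all of these 2 sums came from Cyp17a1, at 6.24 and 7.48 against 3.47 with bFGF alone, so they do not speak for the whole list. The part of these markers was not tested. Under normexp the sterol median with 4OHT was 0.77 with 4 genes at least 2-fold higher, and the median over all genes was 0.06. The share of all genes at least 2-fold higher under normexp is not given here. With probes averaged, 16 of 18 sterol enzymes were higher.

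Fasn was lowest on the uncultured PGC, parental and all-additive arrays (2.42, 3.36 and 3.79), all with a 75th percentile under 250. It was at 4.88 with 4OHT, 5.23 on the Nanos2 array and 5.32 on the array labelled Blimp-1, with 75th percentiles of 241.8, 224 and 195.4. Every array with a 75th percentile under 250 thus had Fasn below every brighter array, the lowest of which was the GSK inhibitor array (5.34). Acaca, at its last probe, split the same way, at -1.13 or lower on the dim arrays and -0.95 or higher on the others. Hmgcs1 was at 5.43 on the PGC array and 2.98 on the parental array, with 75th percentiles of 203.5 and 195.1. The part of brightness in these levels was not tested.

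**Figure D5:**
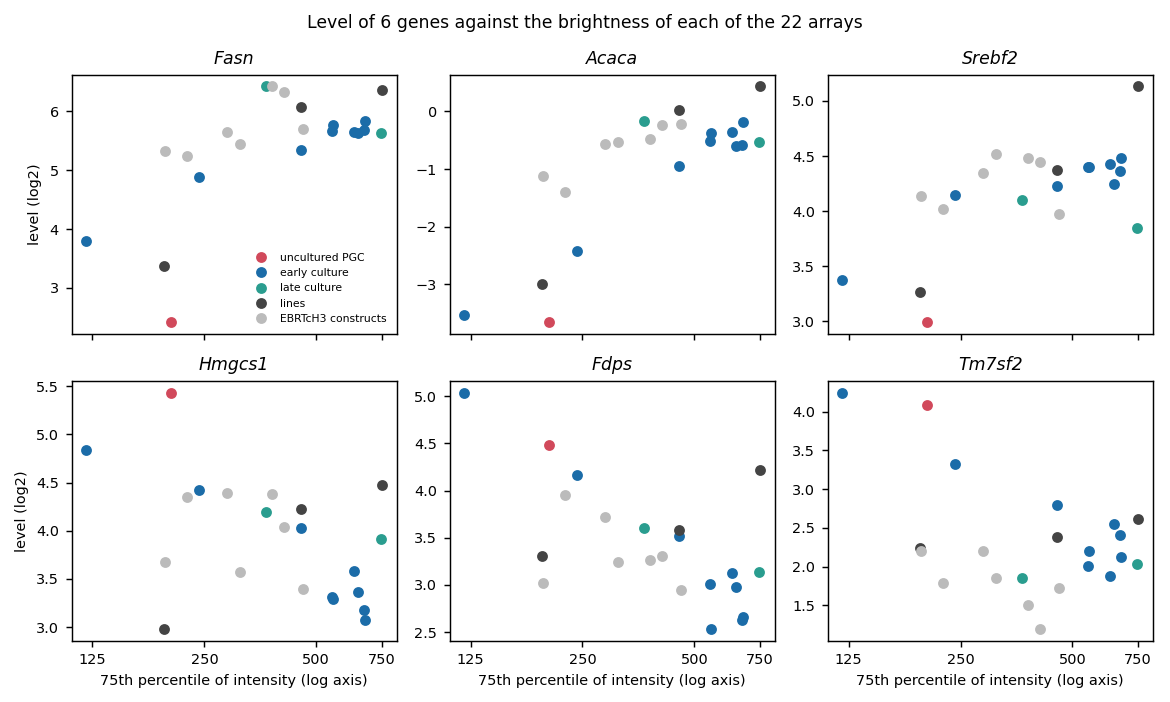
Level of 6 genes (y axes, log2) against the 75th percentile of intensity of each of the 22 arrays (x axis, log scale), 1 point per array. Fasn spans 2.42 to 5.32 and Hmgcs1 2.98 to 5.43 among the 4 arrays with a percentile between 195.1 and 224.

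No member passed the threshold for any forced gene. In limma fits of each construct against the other arrays of its slide, 0 of 30 members passed for Prdm14, Vasa, Nanos2, Nanos3, Blimp-1 (0% of genes each) and Dnd (0.0104%). Nanos2, Nanos3 and Dnd shared a slide with no parental or GFP array, so each was compared only with other forced genes. Prdm14 and Vasa were each compared with the parental array and with one another. At an unadjusted p under 0.05 there was 1 member for Prdm14, Elovl6, with a log2 difference of 1.55, and 1 for Nanos2, Ebp, with 1.11, and none for the others. On the array labelled Blimp-1 against GFP, on the same slide, 7 of 8 fatty acid enzymes were lower with a median log2 difference of -0.93 (all genes: 11.6% at least 2-fold higher, 4.22% at least 2-fold lower, share lower by any amount not given here). Acaca counts among them by its last probe (-1.13 against -0.23), while each of its other probes was higher on the array labelled Blimp-1. Scd2 was at 3.62 on the array labelled Blimp-1 and 4.99 with GFP, 2.58-fold lower. Scd1 was 2.47-fold lower and Fasn 2.01-fold lower, while the 18 sterol enzymes had a median of -0.16 (0.05 with probes averaged). The 75th percentile was 195.4 on the array labelled Blimp-1 and 409.7 with GFP, and whether it bears on these values was not tested.

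In related pathways 12 of 50 genes passed between lines and early cultures, 5 higher and 7 lower, near the 20.2% of all genes that passed. Of 9 genes of the isoprenoid branches, Dhdds, of dolichol synthesis, fell (-1.12, limma adjusted p = 0.00209). Pdss2, of coenzyme Q synthesis, had a value of 1.29 (limma adjusted p = 0.0422) that rests on background, since it was not well above background on the parental line or any early culture. Of 4 genes that process SREBPs, the protease gene Mbtps2 rose (1.15, limma adjusted p = 0.035), and of 7 genes of cholesterol export and LXR signalling, Mylip, an LXR target that encodes a ubiquitin ligase, rose (1.07, 0.0422). Of 7 genes of cholesterol uptake and storage, Lipa, lysosomal acid lipase, fell (-1.77, limma adjusted p = 0.000626), as did Soat1, which esterifies cholesterol (-1.05, 0.026). Of 10 genes of fatty acid elongation, desaturation and activation, Elovl1 and Fads2 fell (-1.12 and -1.11, limma adjusted p = 0.0129 and 0.0232). Of 13 genes of mitochondrial fatty acid oxidation, the dehydrogenases Acadl (-2.14, limma adjusted p = 0.00124) and Acadvl (-1.48, 0.00352) fell and Acadm (0.89, 0.0215) and Hadh (0.92, 0.044) rose. Pdss2, Mbtps2, Acadl and Lipa were named by rule, and the others because so few passed, after their values were seen. Against uncultured PGCs, Smpdl3a alone of these lists passed in early cultures (-3.45, limma adjusted p = 0.0498), and Smpdl3a, Lipa, Dhdds and Tecr fell in lines.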

How the data were processed

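Cy3-labelled RNA of 22 cell samples was hybridised to Agilent arrays. Each array holds 1 colour, and per the file headers the deposited intensities were background-subtracted and detrended within each array and not scaled between arrays. The software was Agilent Feature Extraction 10.7.3.1, per the submitters' processing notes. The deposited value table holds the same intensities, 95.23% of them equal within 0.01 on the log2 scale, and served as an alternative. The probe design is annotated on mm9, per the file headers.

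Outlier spots were left out, repeat spots averaged and log2 intensity set against the array's 75th percentile. The probe with the highest mean level stood for its gene. A gene entered a fit if it was well above background on 1 or more of its arrays. Fits used R 4.3.3 and limma 3.58.1, with two-sided moderated tests (eBayes), and p-values were adjusted by Benjamini-Hochberg over all genes tested, with a threshold of 0.05. The stage fit held 15 arrays (11 residual degrees of freedom), the time trend 6 (4), the day 2 fit 7 (2, additive terms) and the construct fits 8 (4, slide as a block). Where 2 single arrays were compared there is no test. A side not above background was raised to the array's lowest level called so if it lay below that level, and was otherwise kept, giving "at least". Because no group has a second array, p-values measure the spread between different cultures or lines. The fits assume that a group of 1 array has the same spread as the rest, and the number of arrays limits the precision. The arrays lay on 10 slides.

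All 30 members were named. In related lists the rule named the 2 highest and 2 lowest genes of a comparison. The members and lists were chosen with earlier results of these data known. Alternatives were normexp with an offset of 50, the deposited table, quantile scaling, averaged probes, no filter on dim probes, slide as a block, other folds, each array left out in turn and, chosen after seeing the data, brightness as a covariate and leaving out dim arrays. The fits were tested on simulated data. No forced Prdm14 and no Nanog probe was matched, and these are not analysed here. Figures were drawn with matplotlib 3.10.9.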

Additional observations from a re-analysis of the deposited data

Results flagged for a closer look

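Among the 9 early cultures, the day 2 array of 2i, A83-01 and 4OHT stood apart from the nearest other array by more than Dixon's 95% criterion for 6 of the 30 genes. It was highest for Pmvk (3.53, next 2.66), Ebp (5.73, next 4.78) and Insig1 (0.26, next -0.74). It was lowest for Srebf1 (2.50, next 2.99), Srebf2 (3.37, next 4.14) and Fasn (3.79, next 4.88). Chance flags about 1 in 20 such groups. For how many of all genes this array stood apart was not counted, so 6 of 30 cannot be called particular to these genes. This array was also the dimmest, with a 75th percentile of 120.3, and the part of brightness in these values was not tested.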

How the results depend on the processing

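The 4 genes past the threshold between lines and early cultures kept their direction in all 21 alternatives. Elovl6 and Acly stayed past it in each (limma adjusted p up to 0.0367 and 0.023), while Pmvk passed in 10 and Hsd17b7 in 18. Members past the threshold numbered as follows in limma, with the share of all genes that passed in brackets. Lines against uncultured PGCs gave 2 with normexp (9.21%), 1 each with quantile scaling (7.26%), averaged probes (4.75%) and the brightness covariate (13.3%), 5 with GFP in place of the parental array (12.5%), and 0 to 3 with an array left out. Early cultures against PGCs gave 1 with averaged probes (3.53%), 1 with the covariate (5.78%), and 0 to 9 with an array left out. Late against early cultures gave 5 with slide as a random block (23%), 3 as a fixed block (27.8%), 4 with the covariate (15.2%) and 3 without dim arrays (17.6%). Lines against early cultures gave 2 with the random block (9%), 12 without dim arrays (34.5%), and 2 to 6 with an array left out. 4OHT gave 15 with normexp (26.6%), 17 without a filter (56.2%), 16 with a slide term (50.9%), and 0 to 16 with an array left out.

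Members apart by more than the stated fold, in place of 2-fold, numbered 12 at 3-fold for day 1 against PGCs, 4 at 1.5-fold and 0 at 3-fold for day 2 against day 1, 4 at 1.5-fold for day 3 against day 2, 5 and 0 for day 6 against day 3, 5 at 1.5-fold for day 10 against day 6, 3 and 0 for EGC against day 10, and 9 and 1 for EGC against ESC. Against bFGF alone there were 3 at 1.5-fold for the MEK inhibitor, 13 and 0 for the GSK inhibitor, 2 at 1.5-fold for A83-01 and 22 and 4 for 4OHT. Adding 2i and A83-01 to 4OHT gave 15 and 0, and the array labelled Blimp-1 against GFP 8 and 0. With 2-fold kept, normexp gave 0 for EGC against day 10, 8 for 4OHT and 3 for 2i and A83-01 on 4OHT, and averaged probes gave 0, 4 for the GSK inhibitor and 3 for 2i and A83-01 on 4OHT. The shares of all genes at these folds and settings are not given here, so these counts show only how far the member counts move. The cause of these changes was not tested.

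Counts over all genes ran from 66 to 2247 around 820 for early cultures against PGCs, 5 to 5285 around 542 for late against early cultures, 2 to 248 around 15 for lines against late cultures, 1916 to 7587 around 4300 for lines against early cultures, 426 to 2832 around 1099 for lines against PGCs, and 0 to 15764 around 0 for 4OHT. They ran from 0 to 39 for the trend, 1626 for the MEK inhibitor, 1155 for the GSK inhibitor, 1077 for A83-01, 302 for 2i with A83-01, 61 for Prdm14, 23 for Vasa, 57 for Nanos2, 16 for Nanos3, 177 for Blimp-1 and 105 for Dnd. No paired analysis was possible because no group has a second array. Signal over background limits Acaca and Scd1, which fell under it on dim arrays.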
